A study of Mus musculus with 72 samples.

Results

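The genes that take long-chain fatty acids into the heart and burn them in mitochondria were followed through 72 RNA sequencing libraries of mouse right atrium, left atrium and ventricle. The group was chosen by name as 33 genes of fatty acid uptake, mitochondrial entry, β-oxidation and its control, and all 33 were found among the 24237 genes counted. It holds 4 uptake genes, 4 genes of activation and mitochondrial entry, 4 acyl-CoA dehydrogenases, 6 genes of the later steps of the β-oxidation cycle, 3 enzymes for double bonds, 3 genes of electron transfer, 2 acyl-CoA thioesterases, 3 genes that set the balance with carbohydrate, 2 lipid droplet genes and 2 coactivators.

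The adult heart draws most of its energy from fatty acids. Lipoprotein lipase frees them from circulating triglyceride, CD36 and transport proteins carry them in, carnitine palmitoyltransferases pass them into the mitochondrion, and the β-oxidation cycle shortens them while handing electrons to the respiratory chain. Nuclear receptors of the PPAR and ERR families and their PGC-1 coactivators set the level of many of these genes, and the aryl hydrocarbon receptor (AHR) is the ligand-activated factor that the environmental pollutant TCDD (dioxin) binds.

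The study asked what disruption of AHR signaling before birth leaves behind in the adult heart. The 4 groups of C57BL/6J mice were naïve Ahr+/+ mice, whose dams received vehicle, Ahr-/- mice with a germline deletion carried in every cell, and Ahr+/+ mice whose dams were gavaged with TCDD at 0.1 μg/kg (low dose) or 1 μg/kg (high dose). The dams of the Ahr-/- mice were Ahr-/- themselves and, per the study's methods, were not treated. Ahr-/- and naïve mice thus also differed in the genotype and gavage of their dams. The submitters' labels place the gavage at embryonic day 13.5, then day 15.5 and day 18.5, with tissue at 9 months of age, whereas the study's methods place it earlier in gestation and give 10 months. The labels' treatment entries name TCDD for all 72 libraries. Each group, sex and compartment had 3 libraries, and the methods speak of 3 mice per sex and condition. Each heart was cut into its compartments, and the labels do not say which libraries share a heart.

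Library totals ran from 11873417 to 28789382 counts, with a median of 19231739. Ahr, the targeted gene, was counted at 2.00 to 9.23 CPM (counts scaled to the library total) in the 18 Ahr-/- libraries and at 4.68 to 30.8 CPM in the 54 others, so the ranges overlapped across compartments. In female ventricles they did not overlap, with 2.00 to 4.27 CPM against 8.56 to 21.6 CPM. Some libraries stood against their labels. In 8 libraries (4 of female right atrium and 4 of male ventricle, all numbered above 48) the sex-linked genes read as the other sex, and in 13 libraries the atrial myosin light chain Myl4 read as the other tissue. Of 48 atrial libraries, 8 had under 100 CPM of Myl4 while the other 40 had at least 620.55 CPM. Of the ventricle libraries 5, all labeled male, reached that level. The 17 libraries against their labels by either check are called in doubt here, and none of the 12 female ventricle libraries is among them. Above number 48 the pattern was the same in all 4 groups of mice. Libraries labeled female right atrium read as male, and those labeled male left atrium had Myl4 under 100 CPM. Those labeled male ventricle read as female and had atrial levels of Myl4. The cause of this pattern was not tested. Neither check can tell left from right atrium. The tissue label names cardiomyocytes, but whole compartments were sequenced, and in such bulk RNA fewer cells of a type and less RNA per cell cannot be told apart.

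The promoter regions that bear on the results are printed here from RefSeq (assembly GRCm38.p6), since AHR and the nuclear receptors act through short DNA elements. Entries were found for 28 of the 33 members. The first stretch is shown because 2 members that moved in opposite directions share it: Hadha and Hadhb lie head to head on chromosome 5, and the 272 bases between their annotated starts serve both. The others lie directly before the start of Fabp3, the member with the largest change, of the Etfa and Etfb pair, and of Acadvl and Plin5, which had the smallest changes among the called genes outside the shared interval and are shown because they hold both motifs. They are written 5′ to 3′ on the gene's own strand, with the AHR core GCGTG and the nuclear receptor element AGGTCA in capitals on either strand.
Hadha-Hadhb interval, chr5:30154981-30155252, plus strand: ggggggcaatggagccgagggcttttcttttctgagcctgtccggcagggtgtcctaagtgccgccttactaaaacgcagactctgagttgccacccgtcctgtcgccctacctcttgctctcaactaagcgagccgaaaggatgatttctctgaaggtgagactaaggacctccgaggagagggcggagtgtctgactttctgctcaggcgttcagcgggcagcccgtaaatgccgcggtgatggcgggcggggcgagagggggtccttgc
Fabp3 upstream, chr4:130308588-130308737, plus strand: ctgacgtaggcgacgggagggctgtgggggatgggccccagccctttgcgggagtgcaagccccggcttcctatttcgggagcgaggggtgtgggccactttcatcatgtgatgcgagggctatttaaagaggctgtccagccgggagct
Etfb upstream, chr7:43443922-43444071, plus strand: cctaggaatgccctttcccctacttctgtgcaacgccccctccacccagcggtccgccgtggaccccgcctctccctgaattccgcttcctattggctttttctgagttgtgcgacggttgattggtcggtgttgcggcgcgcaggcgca
Etfa upstream, chr9:55512244-55512393, minus strand: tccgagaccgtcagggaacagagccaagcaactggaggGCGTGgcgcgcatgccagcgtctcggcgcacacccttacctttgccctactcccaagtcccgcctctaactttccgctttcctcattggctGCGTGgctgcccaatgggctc
Acadvl upstream, chr11:70015429-70015528, minus strand: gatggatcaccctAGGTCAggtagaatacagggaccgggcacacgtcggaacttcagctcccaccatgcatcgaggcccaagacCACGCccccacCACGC
Plin5 upstream, chr17:56117549-56117748, minus strand: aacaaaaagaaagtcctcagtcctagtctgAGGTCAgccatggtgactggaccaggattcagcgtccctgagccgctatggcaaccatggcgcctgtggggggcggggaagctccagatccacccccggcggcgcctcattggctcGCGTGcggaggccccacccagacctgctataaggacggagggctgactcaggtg

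The core GCGTG, searched on both strands from 250 bases before to 50 bases after each start, was present for 15 of the 28 members (53.6%) and for 35.2% of 27025 genes. AGGTCA was present for 7 members (25.0%) and for 18.1% of all genes. The longer forms TTGCGTG, TCAAGGTCA and the direct repeat of AGGTCA with 1 base between, which contain the shorter ones, were found for 0 of 28 members, against 1.35%, 0.466% and 0.0481% of all genes. The shared Hadha and Hadhb interval, the Fabp3 stretch and the Etfb stretch held none of the 5 motifs. In the full search window, however, Hadhb held GCGTG at position 20 after its start, beyond the printed interval, while Hadha held none. Acadvl and Plin5 held both GCGTG and AGGTCA, and Etfa held GCGTG. Acadl, Acaa1a and Eci1, which changed more than Acadvl and Plin5 and are not printed, held none of the 5. A match is a string of letters in this window and says nothing of binding.

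The members spanned a wide range of levels in the ventricle. Per kilobase of coding sequence, the median level in the 6 naïve ventricle libraries was highest for Lpl (7912 CPM per kilobase, or RPKM), then Fabp3 (4925), Cd36 (2666), Acadm (1839) and Hadhb (1613). These are the lipase, the cytosolic carrier, the membrane receptor, the medium-chain dehydrogenase and the thiolase subunit of the trifunctional protein. The range of Fabp3, 1679 to 5778 RPKM, took in that of Cd36, 1712 to 3057 RPKM, and overlapped with that of Acadm, 1479 to 2201 RPKM. By these ranges the place of Fabp3 in the order was not fixed. Cd36 stood above Acadm within every naïve ventricle library. The lowest were Ppargc1b (8.62 RPKM), which encodes the coactivator PGC-1β, and Cpt1a (21.3 RPKM), the liver form of the entry enzyme. Cpt1b, the muscle form, stood at 359 RPKM, above the highest Cpt1a value in every naïve ventricle library.

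Together the members gave more of the RNA in ventricle than in atrium. Their summed level was 26473 to 39941 CPM in the 19 ventricle libraries not in doubt by Myl4 and 12613 to 31852 CPM in the 40 atrial libraries not in doubt by it. The 8 atrial libraries low in Myl4 lay at 31393 to 40273 CPM, in the range of the ventricles, and the 5 ventricle libraries high in Myl4 at 15291 to 33086 CPM.

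**Figure D1:**
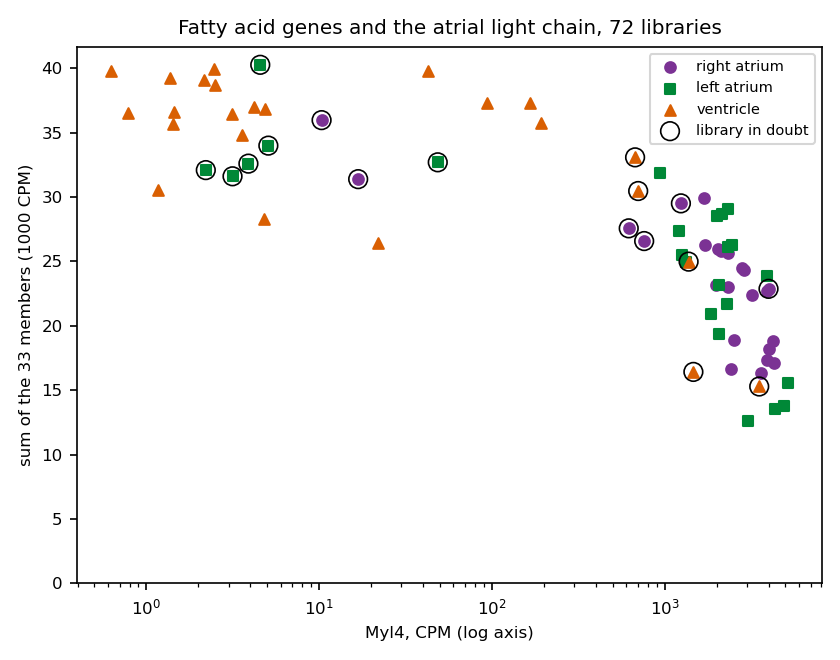
Sum of the 33 members in units of 1000 CPM (vertical axis) against Myl4 in CPM (horizontal log axis) for each of the 72 libraries, colored by labeled compartment, with the 17 libraries in doubt ringed. Libraries with Myl4 under 100 CPM, whatever their label, had sums from 26473 CPM upwards, and sums under that level were found only in libraries with more Myl4.

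Across the naïve libraries as labeled (6 a compartment, sex as a covariate), the median member was higher in ventricle by 0.51 on the log2 scale against right atrium and by 0.51 against left atrium, with 31 and 32 of 33 members above zero. All tested genes had medians of -0.02 and -0.01. No member passed an adjusted p of 0.05 in either comparison in the quasi-likelihood test of edgeR after Benjamini-Hochberg adjustment (0 of 33, beside 0.00671% and 0% of 14893 genes). At an unadjusted p under 0.05 there were 9 and 10 members (beside 19.2% and 11.8% of genes), and DESeq2 called 2 (Cd36 and Lpl, beside 2.5% of genes) and 0. Cd36 had the smallest p in both, with log2 differences of 0.85 ± 0.26 (SE) and 0.72 ± 0.26 and edgeR adjusted p-values of 0.146 and 0.398. Left and right atrium had a median difference of -0.01 with 0 members called (beside 0% of genes), 0 at an unadjusted p under 0.05 (beside 0.873%) and 0 by DESeq2.

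Without the 4 naïve libraries in doubt, edgeR called 18 members higher in ventricle than in right atrium and 19 higher than in left atrium. These stand beside 21.3% and 16.0% of genes, which count calls in either direction. The median differences of the members were 0.99 and 0.83. Lpl then had log2 differences of 1.75 and 1.20, Cd36 of 1.37 and 1.00, and Hadhb of 1.40 and 1.22. Since Myl4 chose most of the libraries left out, this sets ventricle-like against atrium-like libraries. With all 72 libraries and a mean for each group, 30 members were called against right atrium (beside 29.9% of genes) and 23 against left atrium (beside 19.4%), and of the 30 only Cpt1a was lower in ventricle (log2 difference -0.31, edgeR adjusted p = 0.00624). Without all libraries in doubt these were 32 and 31 members, beside 46.8% and 43.5% of genes. The compartments of one heart are not independent, and that link could not be modeled.

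Members passed the test in 1 comparison with naïve, that of female ventricle at the high dose of TCDD. There 9 of 33 members passed an adjusted p of 0.05 against naïve females by edgeR (27.3% of members, beside 23.7% of 14006 genes tested). Of these, 8 were higher (24.2%, beside 12.2% of genes) and 1 was lower (3.03%, beside 11.4%), while 13 had an unadjusted p under 0.05 (beside 36.5% of genes), DESeq2 called 10 (beside 19.1%) and 0 passed an edgeR adjusted p of 0.0001. The higher members were Fabp3, Etfb, Acadl, Acaa1a, Eci1, Plin5, Hadha and Acadvl, and the lower was Hadhb. The median log2 fold change of the 33 was -0.00, against 0.01 over all genes, and 16 members lay above zero.

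**Figure D2:**
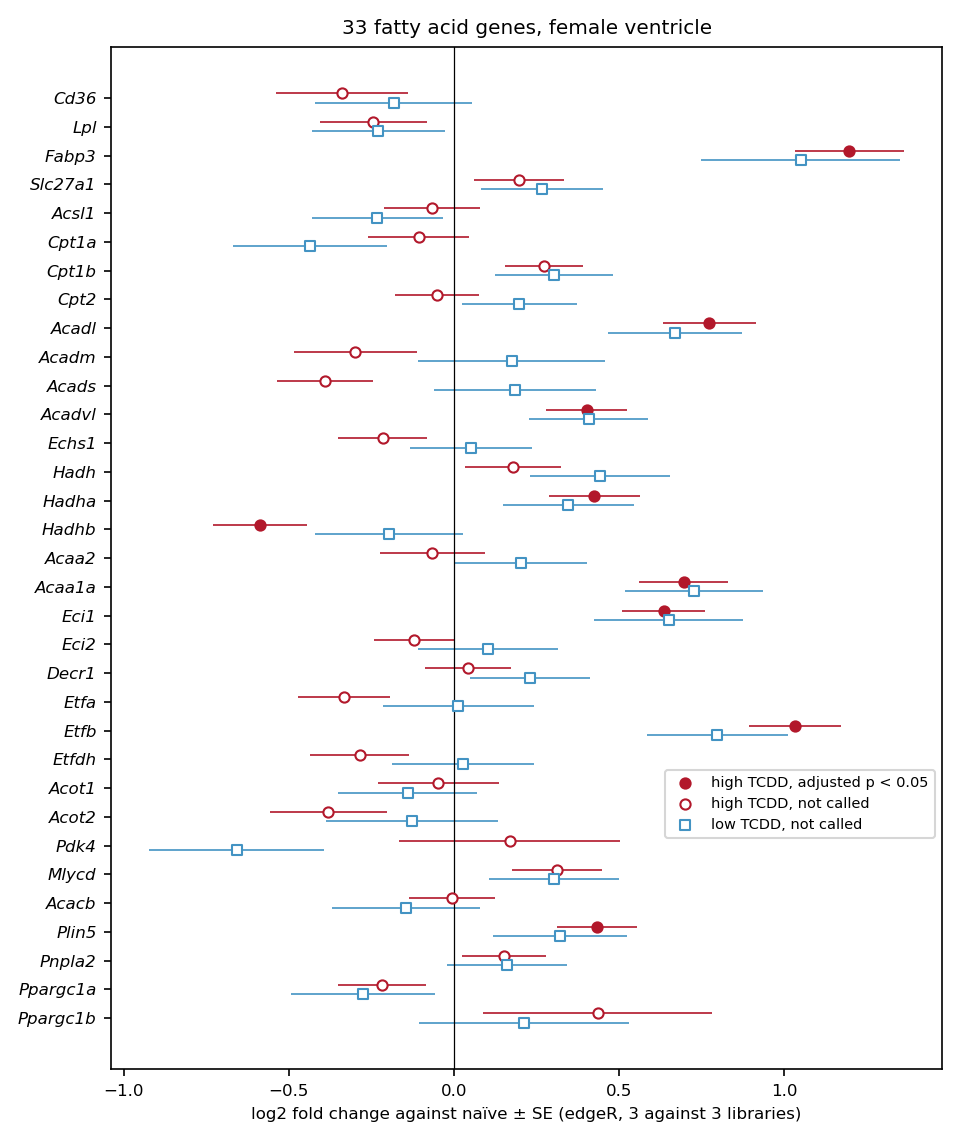
Log2 fold change against naïve with its SE (horizontal axis) for each of the 33 members in female ventricle, by role from uptake at the top to coactivators at the bottom. Circles are the high dose and squares the low dose, 3 against 3 libraries each, and filled symbols mark an adjusted p under 0.05: Fabp3 (1.20) and Etfb (1.03) lay farthest right and Hadhb (-0.59) farthest left at the high dose, while no low-dose symbol is filled.

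Of the 4 uptake genes 1 rose. Fabp3, the heart form of the cytosolic fatty acid carrier, stood at 1924, 2048 and 2006 CPM in the naïve libraries 35, 36 and 54 and at 4722, 3461 and 3931 CPM in the high-dose libraries 43, 44 and 66. Every high-dose library lay above every naïve one, and the fold change was 1.20 ± 0.17 (log2, SE, edgeR adjusted p = 0.000787). Lpl, the lipase that frees fatty acids at the vessel wall, was counted at 11521, 11077 and 11425 CPM against 9066, 10447 and 6339 CPM. These groups did not overlap by CPM either, but Lpl did not pass the test (log2 fold change -0.24 ± 0.16, adjusted p = 0.299). Cd36, the main sarcolemmal fatty acid receptor, was at 3743, 4009 and 3779 CPM against 2455, 4010 and 1799 CPM. Library 44 stood with the naïve libraries for Cd36, and the fold change was -0.34 ± 0.20. Slc27a1, a transport protein of the same membrane, was at 0.20 ± 0.14.

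None of the 4 genes of activation and mitochondrial entry passed the test. Cpt1b, the muscle form of the enzyme that commits fatty acids to the mitochondrion, was at 902, 923 and 803 CPM in naïve and 949, 1028 and 833 CPM in high-dose libraries. Its fold change of 0.27 ± 0.12 had an unadjusted p of 0.0383 (edgeR adjusted p = 0.114). Cpt1a was at 63.6, 73.4 and 43.6 CPM against 47.8, 59.2 and 40.9 CPM, groups that overlapped. Acsl1, the main acyl-CoA synthetase of the heart, and Cpt2, the inner-membrane partner of Cpt1b, had fold changes of -0.07 and -0.05.

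The 4 acyl-CoA dehydrogenases, which take the first step of each cycle on chains of different length, did not move together. Acadl, the long-chain enzyme, was at 1068, 1104 and 1201 CPM in naïve libraries and at 1825, 1791 and 1529 CPM in high-dose libraries. The groups were well apart, and the fold change was 0.77 ± 0.14 (adjusted p = 0.00253). Acadvl, the very-long-chain enzyme, rose by 0.40 ± 0.12 (adjusted p = 0.0316), but library 66 at 1008 CPM lay between the naïve values of 967, 1057 and 943 CPM. Acadm, the medium-chain enzyme, was at 2400, 2268 and 3006 CPM against 1764, 2457 and 1435 CPM, with a fold change of -0.30 ± 0.19. Acads, the short-chain enzyme, had a fold change of -0.39 ± 0.14 and just missed the threshold (adjusted p = 0.0674).

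Hadha and Hadhb encode the α and β subunits of the mitochondrial trifunctional protein, which carries out the remaining steps of the cycle on long chains. Hadha was counted at 1558, 1665 and 1665 CPM in naïve libraries and at 2156, 1933 and 1750 CPM in high-dose libraries (0.43 ± 0.14, adjusted p = 0.0403). Hadhb was counted at 2677, 2712 and 2367 CPM in naïve and at 1628, 1891 and 1114 CPM in high-dose libraries (-0.59 ± 0.14, adjusted p = 0.0113). Neither gene overlapped between groups, and the subunits moved in opposite directions. Acaa1a, a peroxisomal thiolase, rose from 42.9, 45.1 and 46.8 CPM to 67.2, 66.3 and 60.5 CPM (0.70 ± 0.13, adjusted p = 0.00362). It has a close paralog, Acaa1b, which was also called higher (0.47 ± 0.14, adjusted p = 0.0325), and how reads of the pair were divided is not given in the sources used here. The other 3 genes of these steps, Echs1, Hadh and Acaa2, had fold changes of -0.22, 0.18 and -0.07 and were not called.

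**Figure D3:**
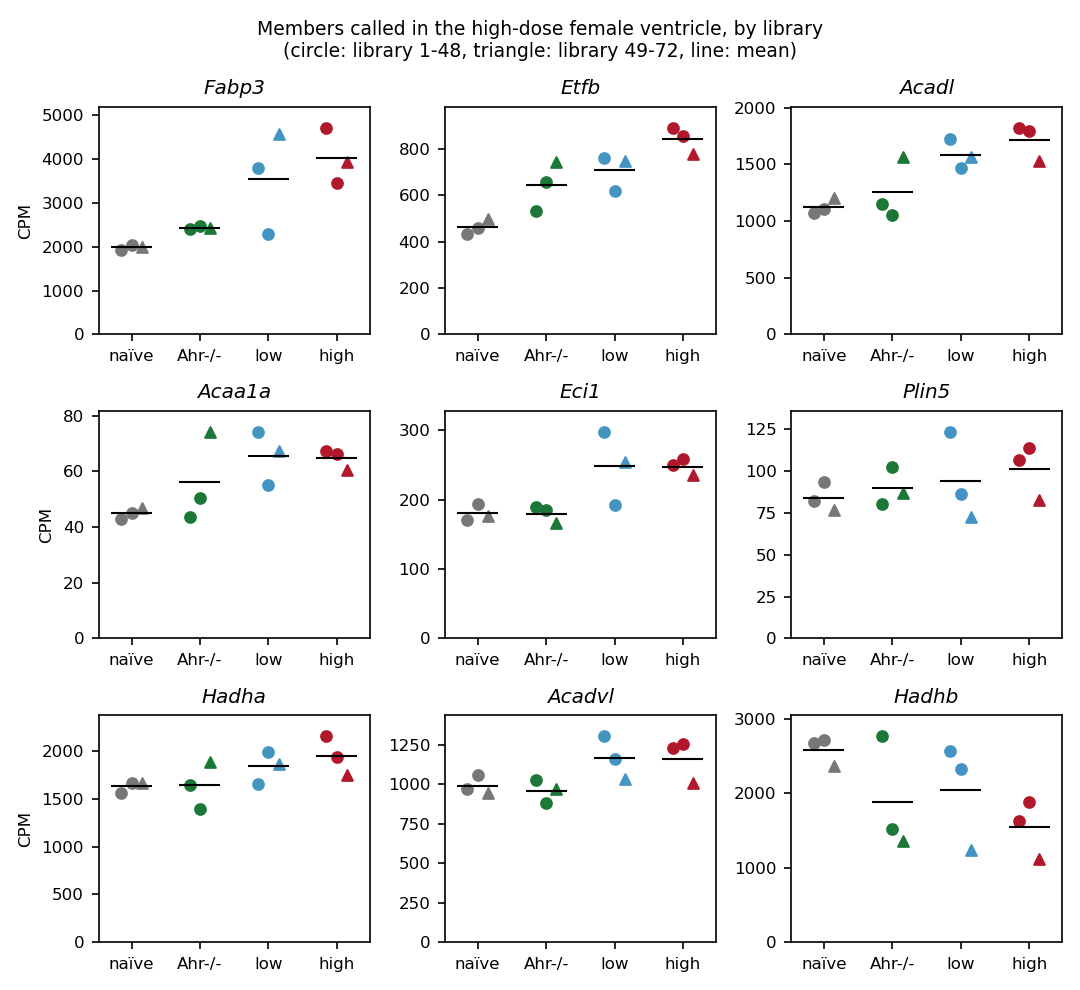
Level in CPM (vertical axes from 0) of the 9 called members in each of the 12 female ventricle libraries, by group, with the mean as a line. Circles are libraries numbered 1 to 48 and triangles those numbered 49 to 72; the high-dose values of Fabp3, Etfb, Acadl, Acaa1a, Eci1 and Hadha all lie above the naïve values, those of Hadhb all lie below, and those of Plin5 and Acadvl overlap.

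Among the enzymes that handle double bonds, Eci1, a mitochondrial enoyl-CoA isomerase, rose from 170.2, 194 and 177 CPM to 249, 258 and 235 CPM (0.64 ± 0.13, adjusted p = 0.00427). Eci2 and Decr1, its companions in the same task, were at -0.12 and 0.04. Of the 3 genes that pass electrons on to ubiquinone, Etfb, the β subunit of the electron transfer flavoprotein, rose from 432, 458 and 498 CPM to 892, 856 and 780 CPM (1.03 ± 0.14, adjusted p = 0.000702). Its partner Etfa was at 735, 748 and 701 CPM against 522, 661 and 377 CPM (-0.33 ± 0.14, adjusted p = 0.102), and Etfdh, the oxidoreductase they serve, was at -0.29 ± 0.15. For Etfa the groups did not overlap, with the high-dose libraries lower, but the test was not passed.

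No controlling gene passed the test. Pdk4, the kinase that holds back glucose oxidation, was at 353, 663 and 677 CPM against 626, 795 and 337 CPM, a wide spread in both groups (0.17 ± 0.33). Acot1 and Acot2, thioesterases that release fatty acids from coenzyme A, were at 46.6, 55.0 and 53.7 CPM against 37.5, 63.2 and 34.9 CPM, and at 172, 178 and 222 CPM against 124, 174 and 99.6 CPM. They are close paralogs whose reads the counting may have divided, so their separate values are uncertain. Mlycd, which removes the entry inhibitor malonyl-CoA, was at 0.31 ± 0.14 (unadjusted p = 0.0385) and Acacb, which makes it, at -0.00 ± 0.13.

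Of the lipid droplet genes, Plin5, a coat protein that ties droplets to mitochondria, was called higher (0.43 ± 0.12, adjusted p = 0.0212) with 82.3, 93.2 and 76.8 CPM in naïve and 107, 114 and 82.9 CPM in high-dose libraries, which overlapped. Pnpla2, the triglyceride lipase, was at 222, 245 and 207 CPM against 209, 269 and 189 CPM (0.15 ± 0.13). The coactivator Ppargc1a was at 285, 276 and 199 CPM against 216, 220 and 144 CPM (-0.22 ± 0.13), and Ppargc1b was at 0.44 ± 0.35. Over all members, 6 lay wholly above naïve (18.2%, beside 11.7% of genes) and 4 wholly below (12.1%, beside 25.1%): Lpl, Hadhb, Eci2 and Etfa.

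Other measures of the libraries moved with these differences. The summed cardiomyocyte markers were 33667 to 36866 CPM in naïve and 49733 to 60994 CPM in high-dose female ventricles, and the summed fibroblast markers 1288 to 1885 CPM and 1114 to 1259 CPM. Capillary endothelium stood at 760 to 893 CPM and 785 to 944 CPM, and adipocyte markers, which Lpl, Cd36 and Plin5 could share, at 7.18 to 21.7 CPM and 4.26 to 8.66 CPM. Their part in the result was not tested. One identifier without a gene symbol took 14.0% of library 66, against at most 6.42% of a naïve library and 0.858% of libraries 43 and 44. Scaling by library totals alone moved the median of all genes by -0.17 and left 6 members called (beside 17% of genes), without Acadvl, Hadha, Eci1 and Plin5 and with Acads.

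Ratios within the subunit pairs and the base composition of the libraries are given side by side, and the part of composition in the ratios was not tested. The ratio of Hadha to Hadhb in CPM was 0.582, 0.614 and 0.703 in the naïve libraries and 1.32, 1.02 and 1.57 in the high-dose libraries. The ratio of Etfb to Etfa was 0.588, 0.613 and 0.711 against 1.71, 1.30 and 2.07. Neither ratio overlapped between the groups. As a measure of composition, the mean log2 deviation of 1 quartile of genes, those richest in GC, less that of the quartile poorest in GC, members left out, was -0.37, -0.33 and -0.43 in naïve and 0.12, -0.02 and 0.35 in high-dose libraries. Library 66 was highest of the 6 in this measure and in both ratios.

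The ratios also varied within the Ahr-/- females, where no member was called. Libraries 39, 40 and 60 had Hadha to Hadhb ratios of 0.593, 0.912 and 1.38, Etfb to Etfa ratios of 0.726, 1.23 and 1.61, and composition values of -0.38, -0.04 and 0.12, in the same order. Across all 72 libraries the Hadha to Hadhb ratio ran from 0.533 to 1.63 and the Etfb to Etfa ratio from 0.490 to 2.59. Hadha and Hadhb have 50.4% and 46.5% GC in their coding sequence, and Etfb and Etfa 57.5% and 45.4%. The 8 members called higher had a median of 55.1% GC and the other 25 members 52.0%.

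**Figure D4:**
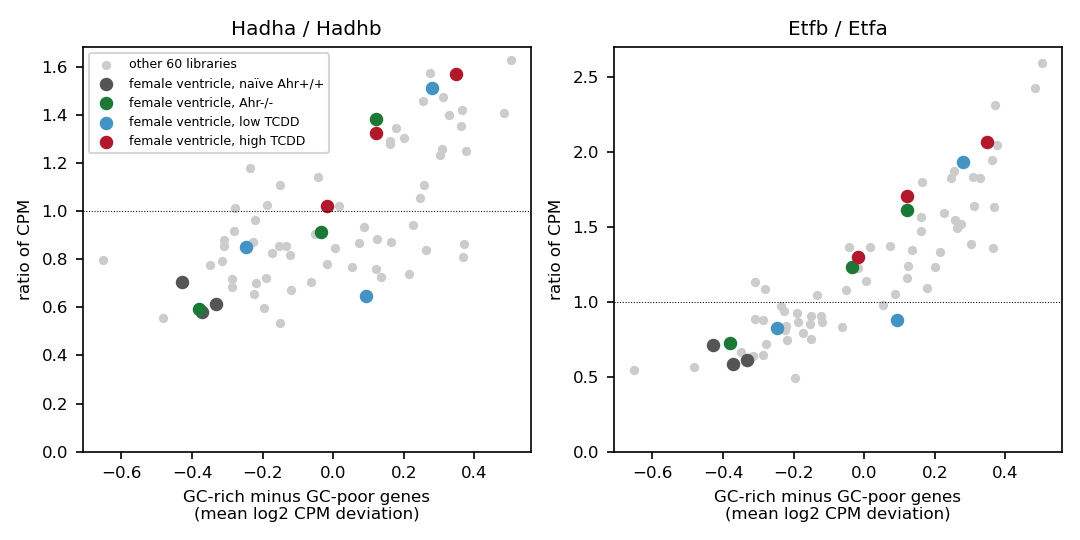
Ratio of Hadha to Hadhb (left) and of Etfb to Etfa (right) in CPM, from 0 on the vertical axes, against the GC measure of each library (mean log2 deviation of GC-rich less GC-poor genes). The 12 female ventricle libraries are colored by group and the other 60 are gray; the naïve female ventricles lie at the lower left and the high-dose library 66 at the upper right, with Ahr-/- and low-dose libraries spread between them.

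With a trend in coding GC content and length removed from each library, an alternative chosen after the data were seen, edgeR called 8 members (beside 16.9% of genes). Other settings gave 3 calls with all 4 groups together (Fabp3, Acadl and Etfb, beside 4.96% of genes), 6 with libraries 1 to 48 only (beside 12.6%) and 14 without library 44 (beside 27.2%). Under the GC and length offset, to which the values that follow belong, Fabp3 (1.25, edgeR adjusted p = 0.000627), Acadl (0.86), Hadha (0.53) and Etfb (0.77) stayed higher. Acaa1a went from 0.70 to 0.41 and Eci1 from 0.64 to 0.41, both still called, and Hadhb from -0.59 to -0.39 (adjusted p = 0.0482). Acadvl (adjusted p = 0.0688) and Plin5 (0.443) were no longer called, and Acads was called lower (-0.65, adjusted p = 0.011).

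Of 74 other genes of lipid handling, 73 were tested in this comparison, and 11 were called higher and 10 lower by edgeR (beside the same 12.2% and 11.4% of genes). The 6 of smallest adjusted p were Sirt3 (1.05 ± 0.13), a mitochondrial deacetylase, Prkaa2 (-0.91 ± 0.13), a catalytic subunit of the energy sensor AMPK, Sirt1 (-1.04 ± 0.15), a nuclear deacetylase, Gpam (-0.76 ± 0.15) and Agpat3 (0.55 ± 0.13), which add acyl groups to glycerolipids, and Acsl4 (-0.67 ± 0.15), a synthetase with a preference for arachidonate. Their adjusted p-values ran from 0.00053 for Sirt3 to 0.00836 for Agpat3. Of the nuclear receptors, Esrra, which encodes ERRα, was called higher (0.42 ± 0.13, adjusted p = 0.0291) and Ppara lower (-0.39 ± 0.13, adjusted p = 0.0414). These other genes were followed in the main fit only, not under the alternatives used for the members. The part of base composition in their calls was not tested.

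In the low-dose female ventricles 0 of 33 members were called by edgeR (beside 0% of 13966 genes), while 7 had an unadjusted p under 0.05 (beside 17.8%). DESeq2 called 4, Fabp3, Acadl, Acaa1a and Etfb (beside 2.78% of 18473 genes with any count). Etfb, with 760, 621 and 748 CPM, had the smallest p (log2 fold change 0.80 ± 0.21, edgeR adjusted p = 0.149). Fabp3 was at 3799, 2301 and 4577 CPM, the 3 values lying above all naïve ones but far apart (1.05 ± 0.30, adjusted p = 0.161). Without library 48, whose value was the lowest of the 3, Fabp3 was the only member called by edgeR (1.34, adjusted p = 0.0442, beside 1.37% of genes). Hadhb stood at 2569, 2335 and 1235 CPM and Cd36 at 3361, 4153 and 1791 CPM, with library 72 lowest in both. The low- and high-dose values rest on the same naïve libraries. Compared directly, high against low dose gave 0 calls by edgeR (beside 0% of genes), 2 members at an unadjusted p under 0.05 (beside 4.48%) and 0 calls by DESeq2. Pdk4 was highest in that comparison, with 330, 342 and 295 CPM at the low dose against 626, 795 and 337 CPM at the high dose (0.81 ± 0.23, unadjusted p = 0.0046, adjusted p = 0.895), and Acads was lower at the high dose (-0.60, unadjusted p = 0.0484).

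The ventricles of Ahr-/- females had 0 members called by edgeR (beside 0.0216% of 13920 genes), 2 with an unadjusted p under 0.05 (beside 9.45%) and 0 by DESeq2. Etfb had the smallest p, at 532, 658 and 746 CPM, each above the highest naïve value (0.56 ± 0.20, edgeR adjusted p = 0.515). Hadhb stood at 2776, 1529 and 1365 CPM, with library 39 above and the others below all naïve values. Lpl stood at 13212, 14152 and 8865 CPM and Cd36 at 4071, 3380 and 2652 CPM, with libraries on either side of the naïve range. Without library 39, whose GC measure was nearest to the naïve libraries, edgeR called Etfb (0.71), Hadhb (-0.73) and Eci2 (-0.52), beside 7.11% of genes. The composition of the remaining libraries and the genotype cannot be told apart there.

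In male ventricles, edgeR called 0 of 33 members in Ahr-/-, high-dose and low-dose mice (beside 0% of genes in each), with 1, 1 and 4 members at an unadjusted p under 0.05 (beside 4.23%, 9.19% and 13.9%) and 0 by DESeq2. Each of these groups and the naïve males includes at least 1 library in doubt. Acaa1a had the smallest p at both doses, with 32.9, 50.3 and 54.2 CPM in naïve libraries 33, 34 and 53, 69.3, 64.0 and 79.8 CPM at the high dose (0.65 ± 0.24, adjusted p = 0.525) and 61.2, 75.7 and 64.6 CPM at the low dose (0.62 ± 0.22, adjusted p = 0.306). Both dose groups lay above the naïve libraries. In Ahr-/- males it was Plin5 (0.80 ± 0.34, adjusted p = 0.827).

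Without the libraries in doubt, which leaves 2 against 2 in the high-dose comparison, edgeR called 4 members in high-dose males (beside 15.9% of genes): Plin5 (1.38), Mlycd (1.18) and Etfb (1.03) higher and Ppargc1a (-1.06) lower. Plin5 then stood at 128 and 133 CPM against 35.0 and 67.5 CPM, and Ppargc1a at 177 and 175 CPM against 469 and 280 CPM. The naïve library 33 was the lowest of all 72 libraries in the GC measure, at -0.65, and library 41 stood at 0.37. The part of composition in these calls was not tested.

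Whether the sexes differed in ventricle was tested as an interaction, the female effect less the male effect. No member was called for Ahr-/-, high dose or low dose by edgeR (0 of 33, beside 0% of genes in each), with 0 members at an unadjusted p under 0.05 (beside 2.74%, 4.53% and 0.929%) and 0 by DESeq2. The smallest unadjusted p for the high dose was that of Acads (-1.06 ± 0.62, adjusted p = 0.952), and for Ahr-/- and the low dose those of Acot2 (-0.64 ± 0.31) and Cpt1a (-0.47 ± 0.30). Without the libraries in doubt, 4 members were called for the high dose (beside 8.03% of genes), all with the female effect below the male effect, Acads (-1.49), Hadhb (-1.02), Plin5 (-0.99) and Eci2 (-0.86). The 2 libraries set aside there, 53 and 65, were labeled male but read as female by their sex-linked genes and as atrial by Myl4. With all libraries kept, both counted as male. Without them the male effect rests on naïve libraries 33 and 34 and high-dose libraries 41 and 42. Their GC measures were -0.65 and -0.31 against 0.37 and 0.05. The part of composition in the 4 interaction calls was not tested.

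No member was called by edgeR in any atrial comparison (0 of 33 in all 12, beside 0% of genes in each). Over the 24 comparisons without a call, chambers and interactions included, 0 to 10 members had an unadjusted p under 0.05 and DESeq2 called 0 to 4. Pdk4 in male atria had the largest log2 fold changes of any member over the 18 comparisons with naïve. In right atrium it stood at 431, 188 and 254 CPM in naïve libraries, at 835, 691 and 1726 CPM in Ahr-/- libraries (1.90 ± 0.43, unadjusted p = 0.00158, edgeR adjusted p = 0.821) and at 1910, 432 and 661 CPM in high-dose libraries (1.84 ± 0.51, adjusted p = 0.734). Each of these 6 libraries lay above the naïve ones, library 10 by under 2 CPM. In left atrium it stood at 342, 309 and 264 CPM, 1077, 990 and 1577 CPM (1.98 ± 0.32, unadjusted p = 0.000294, adjusted p = 0.928) and 1972, 763 and 748 CPM (1.98 ± 0.41, adjusted p = 0.369). Here too no value overlapped with naïve, and DESeq2 called Pdk4 in all 4 comparisons, with adjusted p-values from 5.79e-07 to 0.0139 (beside 0.116% and 0.316% of genes in right atrium and 0.0259% and 0.66% in left atrium, for Ahr-/- and high dose). The same 3 naïve libraries serve both comparisons within each atrium. At the low dose the log2 fold changes of Pdk4 were 0.64 ± 0.35 in right and 0.81 ± 0.62 in left atrium. In female atria and in ventricles Pdk4 ran from -0.66 to 0.83. The 0.83 was that of Ahr-/- female right atrium, where library 56, labeled female but read as male, had 34664 Pdk4 counts. Its companions 7 and 8 had 10229 and 8500 counts, at library totals of 25220085 and 21382446 against 22907321 in library 56. A difference of Pdk4 between the sexes was not tested in atria.

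**Figure D5:**
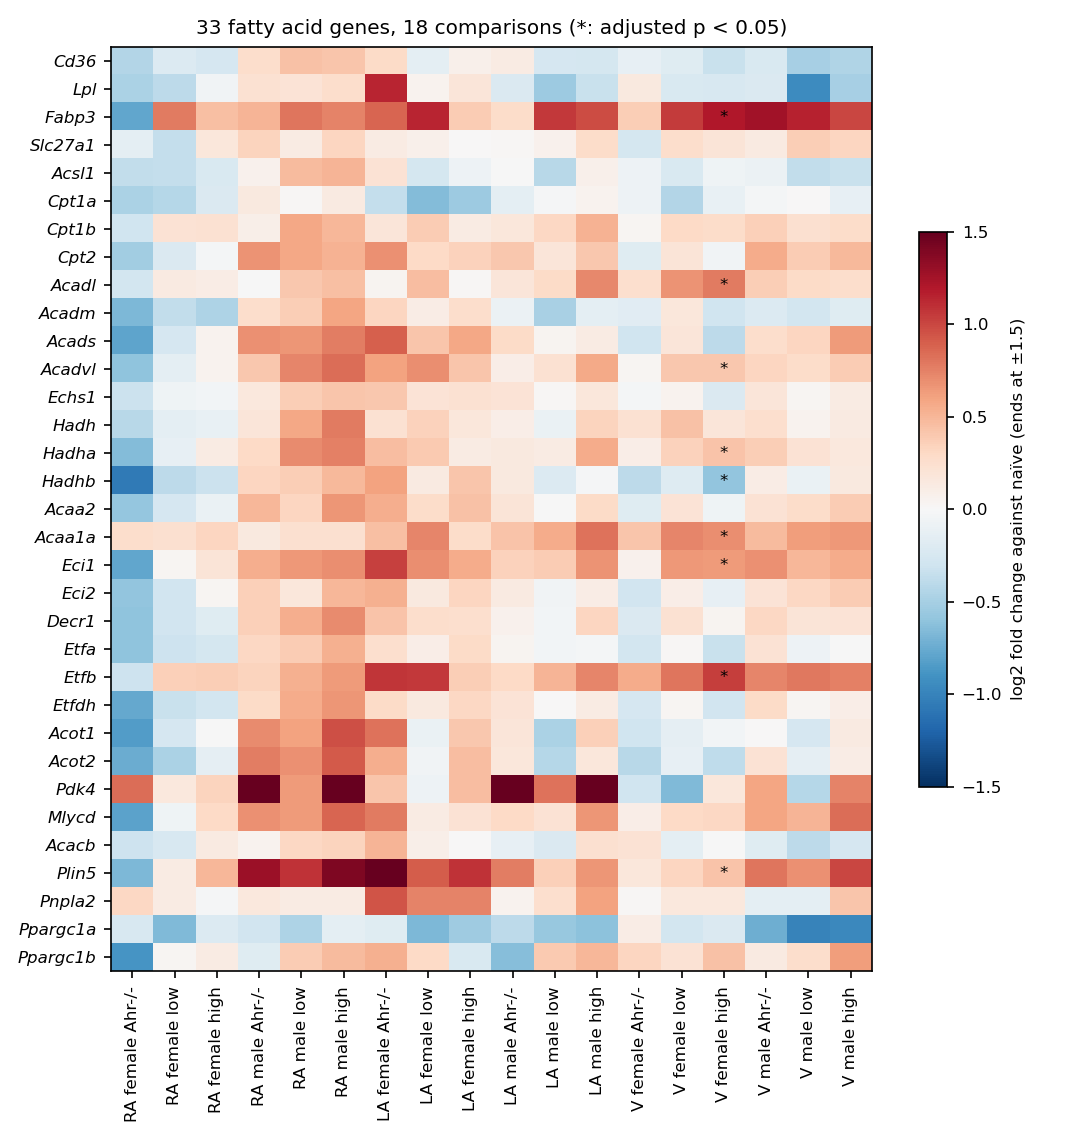
Log2 fold change against naïve (color, red higher and blue lower, scale ending at ±1.5) of the 33 members (rows, by role) in the 18 comparisons (columns, by compartment, sex and group). Asterisks mark an adjusted p under 0.05 and are found only in the column of high-dose female ventricle; Pdk4 in male Ahr-/- and high-dose atria (1.84 to 1.98) exceeds the scale.

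In male right atrium most members lay above naïve in each group, with 30, 32 and 32 of 33 above zero and medians of 0.32, 0.54 and 0.47 for Ahr-/-, high dose and low dose, against medians of -0.01, -0.00 and -0.01 over all genes. In these comparisons 6, 9 and 9 members had an unadjusted p under 0.05 (beside 5.12%, 5.41% and 4.41% of genes) and DESeq2 called 1 (Pdk4), 1 (Pdk4) and 0. The members not overlapping with naïve and higher numbered 10, 14 and 9 (beside 7.76%, 3.73% and 5.03% of genes). Mlycd had 31.2, 37.1 and 37.1 CPM in naïve libraries, 75.4, 56.3 and 42.2 in Ahr-/-, 54.0, 58.7 and 68.4 at the high dose and 57.0, 48.9 and 53.1 at the low dose, with no overlap (adjusted p = 0.821, 0.687 and 0.941). Acot1 had the smallest p at the high dose (0.97 ± 0.23, adjusted p = 0.665). No male right atrial library was in doubt, by checks that cannot tell right from left atrium. The summed atrial cardiomyocyte markers were at 15537 to 16345 CPM in naïve libraries and 8619 to 14598 CPM at the high dose. They were at 5320 to 11091 CPM at the low dose and 5944 to 23022 CPM in Ahr-/-. Their part in the result was not tested.

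In female right atrium the signs were the other way for Ahr-/-, with 30 of 33 members below zero, a median of -0.58 and 4 members at an unadjusted p under 0.05 (beside 5.51% of genes) with 0 by DESeq2, of which Ppargc1b had the smallest (-0.89 ± 0.25, adjusted p = 0.817). That comparison includes naïve library 4, with 10.3 CPM of Myl4 and a member sum of 35976 CPM against 18883 and 26585 CPM in its companions. Naïve library 50 and Ahr-/- library 56 are in doubt by their sex-linked genes, and with all 3 left out only library 3 would remain as naïve. At the high dose and low dose the members had medians of -0.01 and -0.21, 0 members at an unadjusted p under 0.05 (beside 3.91% and 4.27%) and 0 calls by DESeq2. Acaa1a had the smallest p at the high dose (0.33 ± 0.22, adjusted p = 0.973) and Ppargc1a at the low dose (-0.66 ± 0.32, adjusted p = 0.974).

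In female left atrium the Ahr-/- comparison rests on libraries 23 and 24, both low in Myl4, beside library 58. Etfb was at 952, 759 and 372 CPM in these, against 349, 310 and 385 CPM in naïve libraries (1.07 ± 0.34, edgeR adjusted p = 0.359). Of the members, 3 had an unadjusted p under 0.05 (beside 13.7%) and DESeq2 called 0. Without library 58, Etfb was called (1.38, adjusted p = 0.04, beside 2.45% of genes). With libraries 1 to 48 only, 21 members were called higher (beside 18.4% of genes called in either direction). That fit compares libraries 23 and 24, both in doubt, with naïve. Without them only library 58 would remain as Ahr-/-. At the low dose no female left atrial library was in doubt, by checks that cannot tell left from right atrium. Etfb stood there at 656, 675 and 671 CPM, tightly grouped and above all naïve values (1.07 ± 0.22, unadjusted p = 0.000874, edgeR adjusted p = 0.153). There 6 members had an unadjusted p under 0.05 (beside 17.6%), and DESeq2 called Etfb, Acaa1a and Pnpla2 (beside 3.08% of genes). Pnpla2 had the smallest p at the high dose (0.74 ± 0.31, edgeR adjusted p = 0.592), where 1 member had an unadjusted p under 0.05 (beside 8.42%), DESeq2 called 0 and libraries 1 to 48 alone gave 1 call (Acot1, beside 0.44%).

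In male left atrium, 1, 3 and 1 members had an unadjusted p under 0.05 in Ahr-/-, high-dose and low-dose libraries (beside 3.52%, 11.4% and 1.6%), and DESeq2 called 1, 1 and 0. The 1 was Pdk4, described above, and at the low dose Ppargc1a had the smallest p (-0.57 ± 0.23, adjusted p = 0.999). Ppargc1a, which encodes PGC-1α, was also at -0.61 ± 0.30 at the high dose. Without the libraries in doubt, 1 in each of these 4 groups, Pdk4 was at 1.69 (adjusted p = 0.347) in Ahr-/- and 2.11 (adjusted p = 0.189) at the high dose, and Ppargc1a at -1.09, -1.07 and -0.69 in Ahr-/-, high-dose and low-dose males, none of them called.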

How the data were processed

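Poly(A) RNA of right atrium, left atrium and ventricle was sequenced in 72 libraries, 3 for each of 24 groups of compartment, sex and condition. Per the labels and the study's methods, the authors called bases with CASAVA 1.8 and bcl2fastq, aligned reads to mm10 with TopHat, counted reads on coding regions with Bioconductor tools and deposited raw counts per gene, with no normalization. DESeq is also named in their processing notes. How strands and reads with several alignments were handled is not given in the sources used here.

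Counts were tested with edgeR 4.0.16 in R 4.3.3 (filterByExpr with a minimum count of 10 and a minimum total of 15, TMM factors, quasi-likelihood F test with robust dispersions, p-values adjusted after Benjamini-Hochberg over all genes tested, threshold 0.05). The 18 comparisons with naïve were fitted separately, 3 against 3. High against low dose, 3 interactions of sex with condition in ventricle and 3 comparisons between compartments brought the number to 25. SEs are the log2 fold change over the square root of F. DESeq2 1.42.0 was an alternative. Its shares of genes are over all genes with any count, also those without an adjusted p, and those of edgeR over genes passing the filter. The shares of the 2 tools are therefore not on the same footing. Levels are CPM by library total. Levels compared between genes are per kilobase of coding length (GENCODE M21, which is GRCm38, as mm10). All 33 members passed the filter in each comparison, and 24155 of 24237 genes were matched to a symbol. No 2 libraries were identical (highest correlation of log2 CPM 0.990), and no column was left without a sample. The main edgeR fit of 3 comparisons was run on simulated counts with known changes, as was DESeq2 for high-dose female ventricle. The simulation held no shift in base composition and no library against its label. The other settings were not simulated.

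Depth limits only rare genes, so the spread between 3 libraries sets the precision. An exact permutation test of 3 against 3 cannot go below p = 0.1. The methods speak of biological triplicates from 3 mice per sex and condition, but the labels do not tie libraries to mice or litters, so p-values measure the spread between these libraries.

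The 33 members, the 74 other genes and the marker lists were chosen with earlier results of these data known. Named were 11 members by library in female ventricle, the called members, the member of smallest p elsewhere, and the 6 other genes of smallest adjusted p. Esrra, Ppara and Acaa1b were named after their values were seen, as were the members given at the low dose, in male right atrium and in left atrium beyond that rule. Alternatives were no filter, RLE factors, library totals, DESeq2, an adjusted p of 0.0001, a joint fit of the 4 groups, a series term (libraries 1 to 48 against 49 to 72), each library left out in turn and, between compartments, all 72 libraries. Added after seeing the data were the removal of the libraries in doubt, libraries 1 to 48 only, and an offset for coding GC content and length (splines with 5 degrees of freedom on log2 CPM with a prior count of 2). The GC measure of a library used genes with a mean above 1 CPM on log2(CPM + 0.5).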

Additional observations from a re-analysis of the deposited data

Results flagged for a closer look

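Among the 6 naïve libraries of a compartment, 1 library stood apart from the other 5 for 7 results, by Dixon's criterion at 95%, of 99 groups examined. Chance alone flags about 1 group in 20. In right atrium this was library 4 for Etfb (575 CPM, next 421), Mlycd (84.6 CPM, next 41.9) and Acacb (463 CPM, next 336), the library whose Myl4 read as ventricle. In left atrium library 17 was lowest for Acaa1a (30.1 CPM, next 47.7) and library 18 highest for Acacb (497 CPM, next 332). In ventricle library 53, in doubt by sex and tissue, was lowest for Cd36 (2424 CPM, next 3743), and library 33 was highest for Lpl (19830 CPM, next 11521).

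In right atrium, 2 members lay in every Ahr-/- library below naïve in females and above naïve in males (6.06% of the 33), as did 16 of the 14720 genes tested in both sexes (0.109%). Acot1 had log2 fold changes of -0.84 and 0.71 and Mlycd of -0.80 and 0.68. The difference between the sexes was not tested in atria. The female comparison includes naïve library 4, the highest of its group for both genes, whose sum of all members was also the highest.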

How the results depend on the processing

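In high-dose female ventricle the 9 calls became 3 with all 4 groups in one fit (Fabp3, Acadl and Etfb) and 0 at an adjusted p of 0.0001, and 6 to 14 with single libraries left out (14 without library 44, which added Cd36, Acads, Etfa, Etfdh and Acot2 as lower; 6 without library 35 or 43). Fabp3, Acadl, Hadhb, Acaa1a, Eci1 and Etfb were called in all 6 of those fits, Plin5 in 4, and Acadvl and Hadha in 2 (without library 54 or 44). With single libraries left out, the counts ran from 0 to 3 in female Ahr-/- ventricle (3 without library 39), from 0 to 1 in low-dose female ventricle (Fabp3 without library 48) and from 0 to 1 in female Ahr-/- left atrium (Etfb without library 58). DESeq2 called 4 members in low-dose female ventricle, 3 in low-dose female left atrium, 1 in each of the male Ahr-/- and high-dose right and left atria, and 2 between ventricle and right atrium, where edgeR called 0. With all 72 libraries 30 and 23 members were called for ventricle against right and left atrium, without those in doubt 32 and 31, and with naïve libraries not in doubt 18 and 19. Libraries 1 to 48 alone gave 21 calls in female Ahr-/- left atrium, 1 in high-dose female left atrium (Acot1) and 4 in high-dose male ventricle. Removal of the libraries in doubt gave 4 there and 4 for the interaction of sex with high dose. It could not be fitted in high-dose female right atrium, where 1 against 1 library remained. In female right atrium (Ahr-/- and low dose), female Ahr-/- left atrium and low-dose male ventricle it left 1 arm with 1 library, assumed to vary like the other arm, so the 0 calls there say nothing of stability. The cause of these changes was not tested. Counts elsewhere stayed within 1.5 times.

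Among single log2 fold changes in high-dose female ventricle, none of a called member changed sign. With the GC and length offset Cd36 came to 0.0897, Slc27a1 to -0.0472, Acsl1 to 0.045 and Pnpla2 to -0.0899. Library totals gave -0.11 for Decr1 and -0.0162 for Pnpla2, and libraries 1 to 48 alone 0.0447 for Acsl1, 0.12 for Acaa2 and 0.11 for Acot1. With single libraries left out, Acsl1 ran from -0.15 to 0.0576, Cpt1a from -0.24 to 0.0323, Cpt2 from -0.12 to 0.0307, Acaa2 from -0.22 to 0.0472, Decr1 from -0.0541 to 0.12, Acot1 from -0.29 to 0.10, Pdk4 from -0.12 to 0.40 and Acacb from -0.11 to 0.0554. No paired analysis was possible because the labels number the libraries once through and do not say which share a heart, so the groups share no replicate number.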
